A study of Mus musculus with 18 samples.

Results

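Haemoglobin mRNA and the mRNA of 2 further red cell genes were followed through axoplasm of mouse peripheral nerve and through the RNA that came down from it with an antibody to Kif5A. The 6 genes were Hba-a1 and Hba-a2, which encode the adult alpha chains of haemoglobin, Hbb-bs and Hbb-bt, which encode the adult beta chains, Slc4a1, the anion exchanger band 3 of the red cell membrane, and Alas2, the erythroid enzyme of the first step of haem synthesis. They were taken by their gene names, and all 6 were found among the 12697 genes with a transcript that both the dorsal root and the sciatic nerve table hold. Kif5A is a heavy chain of kinesin-1, the motor that carries cargo along axons, and the study asked which RNAs come down with it. In each of 3 independent biological repeats, axoplasm of 5 pooled C57B6 mice was taken from the sciatic nerve (SN) and, in the same animals, from the dorsal root (DR). The 6 groups, of 3 libraries each, were the Kif5A precipitate, the precipitate with rabbit IgG as isotype control and the input of SN, and the same 3 of DR. No allele or drug was named in the labels, and axoplasm here means the supernatant of ground tissue, so it was not restricted to axons.

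Haemoglobin is a tetramer of alpha and beta chains, each holding a haem, and carries oxygen in red cells. Mouse red cells lose their nucleus, and the young ones, the reticulocytes, still hold much globin mRNA while mRNAs of the earlier erythroblast stages fall away. Globin mRNA in a sample of whole tissue is a widely used sign of blood. In such bulk samples, fewer cells of a type and less RNA per cell cannot be told apart.

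On GRCm38, in the GENCODE M21 annotation, Hba-a1 (chr11:32283511-32284465) and Hba-a2 (chr11:32296489-32297298) lie on the plus strand of chromosome 11. Hbb-bs (chr7:103826534-103828096) and Hbb-bt (chr7:103812524-103813996) lie on the minus strand of chromosome 7, 12537 bases apart. Slc4a1 (chr11:102348824-102366203) is on the minus strand of chromosome 11, and no annotated gene overlaps it or any of the 4 globins. Alas2 (chrX:150547375-150570638), on the plus strand of the X chromosome, overlaps Apex2, a DNA repair gene on the opposite strand, over its whole length and shares 311 of the 2037 bases of its counted transcript with exons of Apex2. The sources used here do not say whether reads were counted by strand, so reads of that stretch cannot be assigned. Apex2 stood in the DR table alone, with 0 to 49 counts a library.

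The genes of each globin pair are nearly identical copies, and the stretch around the only base that parts their coding sequences shows how little separates them. Over 426 coding bases, Hba-a2 differs from Hba-a1 at C381T, and over 441 coding bases, Hbb-bt differs from Hbb-bs at C417T, positions being counted from 1 at the start codon and the first-named base being that of Hba-a1 or Hbb-bs. Each change is in the third base of its codon. The mRNA sequences below run 5′ to 3′, from position 341 to 401 for the alpha pair and from 377 to 437 for the beta pair, with the differing base in capitals.
Hba-a1: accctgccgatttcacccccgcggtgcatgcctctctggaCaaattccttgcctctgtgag
Hba-a2: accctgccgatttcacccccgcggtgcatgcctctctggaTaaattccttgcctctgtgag
Hbb-bs: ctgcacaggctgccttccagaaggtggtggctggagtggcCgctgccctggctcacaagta
Hbb-bt: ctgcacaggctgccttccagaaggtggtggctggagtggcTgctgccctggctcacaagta
Of all stretches of 50 bases in the Hba-a1 transcript, 67.5% also occur in that of Hba-a2, and 86.9% of those of Hba-a2 occur in Hba-a1. The shares are 65.8% of Hbb-bs found in Hbb-bt and 58.3% of Hbb-bt found in Hbb-bs. A read from such a stretch matches both copies equally well, and the labels do not say how the counting treated such reads. The values of single globin genes are therefore uncertain. The sum of each pair is given beside them for the inputs and for the comparisons within a tissue.

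Libraries held 11584418 to 22580824 counts in rows with a gene name. Markers of myelinating Schwann cells summed to between 4029 and 25929 CPM per library, and those of sensory neurons and axons to 24.9 to 112 CPM in SN and 236 to 349.9 CPM in DR. Isl1, a sensory neuron transcription factor, was at 0 in the SN precipitates and in the DR precipitates with IgG. Fat cell markers were high in SN, at 5231 to 107040 CPM, against 162 to 377 CPM in DR. Neutrophil granule genes, in contrast, summed to 10.6 to 49.8 CPM in SN and to 910 to 2889 CPM in DR. The levels of neuron, fat cell and neutrophil markers thus differed between the tissues without overlap. Those of Schwann cell markers overlapped, at 16778 to 21524 CPM in SN inputs and 18453 to 25929 CPM in DR inputs. The part of these markers in the results that follow was not tested.

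Levels of single genes and of summed globins are given as CPM, the counts of a gene relative to all counts in a library's named rows, scaled with TMM factors. Summed levels of the marker lists are CPM by library size alone, without these factors. In the SN inputs, Hba-a1 stood at 528, 542 and 856 CPM and in the DR inputs at 1119, 1790.2 and 986 CPM, and no SN input reached the lowest DR input. Together the 4 globins made up 0.160% to 0.162% of the named counts in the SN inputs and 0.260% to 0.401% in the DR inputs. In SN, their sum was 612 ± 10.7 CPM with Kif5A, 319 ± 50.8 CPM with IgG and 1750 ± 103 CPM in input (SD, n = 3 each). In DR, it was 1807 ± 1213 CPM with Kif5A, 1893 ± 1418 CPM with IgG and 3453 ± 967 CPM in input. By mean, the DR inputs were thus highest and the SN precipitates with IgG lowest. The 3 groups of SN did not overlap in this sum. The 3 groups of DR overlapped one another, and the DR precipitates overlapped the SN inputs.

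**Figure D1:**
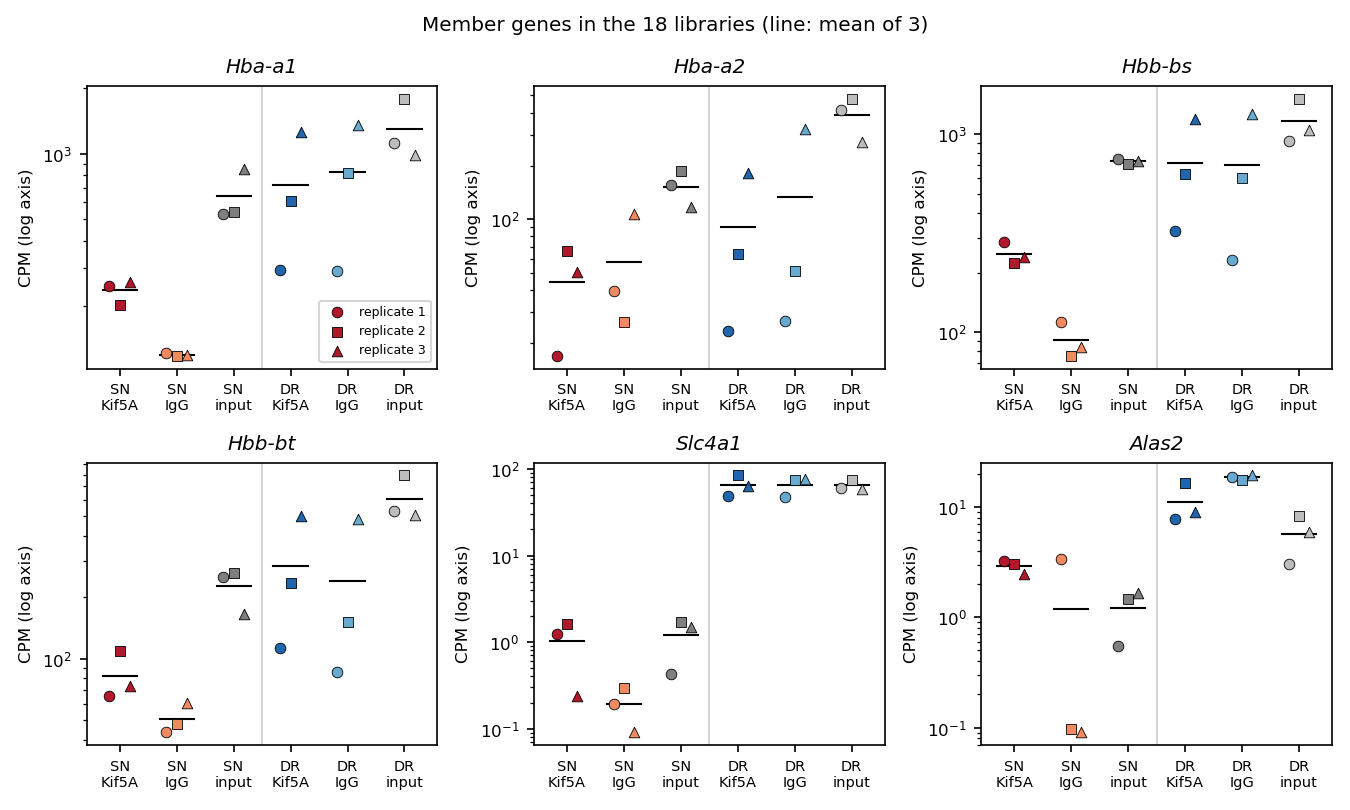
CPM (log axis) of the 6 genes in each library of the 6 groups, with the symbol giving the replicate number and the line the mean of 3 libraries. In SN the globins were lower in both precipitates than in input, and Slc4a1 stood at 1.72 CPM or less in every SN library, against 47.2 CPM or more in every DR library.

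Per kilobase of transcript, the globins outranked the other members by far. In the SN inputs, Hbb-bs had 1159 ± 36.6 and Hba-a1 918 ± 265 CPM per kilobase, Hbb-bt had 322 ± 75.1 and Hba-a2 276 ± 61.96, Alas2 had 0.601 ± 0.288 and Slc4a1 0.267 ± 0.151 (SD, n = 3). In the DR inputs, Hba-a1 had 1857 ± 617 and Hbb-bs 1840 ± 488 CPM per kilobase, Hbb-bt had 867 ± 228 and Hba-a2 704 ± 189, Slc4a1 had 14.2 ± 1.92 and Alas2 2.82 ± 1.28. Slc4a1 ranked above Alas2 in the DR inputs without overlap, and their SN libraries overlapped. Within a tissue, the values of Hba-a1 and Hbb-bs overlapped in these inputs, as did those of Hba-a2 and Hbb-bt.

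The inputs of the 2 tissues were compared first, since they show where red cell mRNA was present before any antibody was added. All 6 genes were lower in SN than in DR inputs, with no overlap between the 3 libraries of each, and 3 of them passed edgeR's quasi-likelihood test at an adjusted p under 0.05. Of all 12215 genes tested, 4.12% passed in either direction, 1.78% passed as lower and 11.1% lay below without overlap. At an unadjusted p under 0.05, all 6 members and 6.96% of genes were lower. The members' median log2 fold change was −1.38, against 0.06 over all genes tested.

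Slc4a1, whose product exchanges chloride and bicarbonate and anchors the red cell skeleton, showed the largest difference among the members. It had 0.432, 1.72 and 1.48 CPM in the SN inputs, from 7, 20 and 26 counts, and 61.0, 74.8 and 58.5 CPM in the DR inputs, from 1092, 1191 and 883 counts. The lowest DR library was thus far above the highest SN library. Slc4a1 fell by 5.73 on the log2 scale (SE 0.49, 95% interval −6.86 to −4.61, adjusted p = 3.2e-04 with edgeR), a level 53.2-fold lower in SN. The fall held in each fit with 1 input left out, at −6.05 to −5.35.

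The beta chain gene Hbb-bt had 251, 262 and 166 CPM in the SN inputs and 529.9, 794 and 505 CPM in the DR inputs. It fell by 1.42 on the log2 scale (SE 0.28, edgeR adjusted p = 0.0241), 2.67-fold. Hba-a2, the second alpha gene, had 155, 186 and 118 CPM in the SN inputs and 416, 478 and 275 CPM in the DR inputs. It fell by 1.34 (SE 0.29, adjusted p = 0.0354). Both calls hung on few libraries. Hbb-bt no longer passed without any one of the DR inputs or without SN input 1 (adjusted p 0.0503 to 0.146), and Hba-a2 without DR input 1 or 2 or SN input 1 or 2 (0.0506 to 0.198).

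Hbb-bs, the more abundant beta gene, had 751, 705 and 729 CPM in the SN inputs, close together, and 920.3, 1502 and 1044 CPM in the DR inputs, a log2 fold change of −0.65 (SE 0.24, edgeR adjusted p = 0.229). Hba-a1 had a log2 fold change of −0.995 (SE 0.31, adjusted p = 0.146). Neither passed, although both lay below DR in every SN library. As sums, the alpha pair had a log2 fold change of −1.07 (SE 0.28, adjusted p = 0.0844) and the beta pair −0.87 (SE 0.24, adjusted p = 0.0938). Without SN input 3, all 6 genes passed, and the share of all genes that passed in that fit is not reported here. The 6 fits with 1 input left out called 220 to 2538 genes and 1 to 6 members, against 503 genes in the fit of all 6 inputs.

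Alas2 had 0.555, 1.47 and 1.65 CPM in the SN inputs, from 9, 17 and 29 counts, and 3.02, 8.22 and 5.97 CPM in the DR inputs, from 54, 131 and 90 counts. Its log2 fold change was −2.20 (SE 0.61) with an adjusted p of 0.0982 in edgeR. In an alternative fit, the replicate number was taken to pair SN and DR inputs, although the labels do not say that equal numbers share animals. With this number as a block, Alas2 also passed edgeR's test, at −2.22 and an adjusted p of 0.0432, and Slc4a1 had an adjusted p of 5.5e-05. The blocked fit called 4 of the 6 members, as did DESeq2, with an adjusted p of 0.00698 for Alas2. DESeq2 called 1061 genes in all between inputs, against 503 in the unblocked edgeR fit, and the total of the blocked fit is not reported here.

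**Figure D2:**
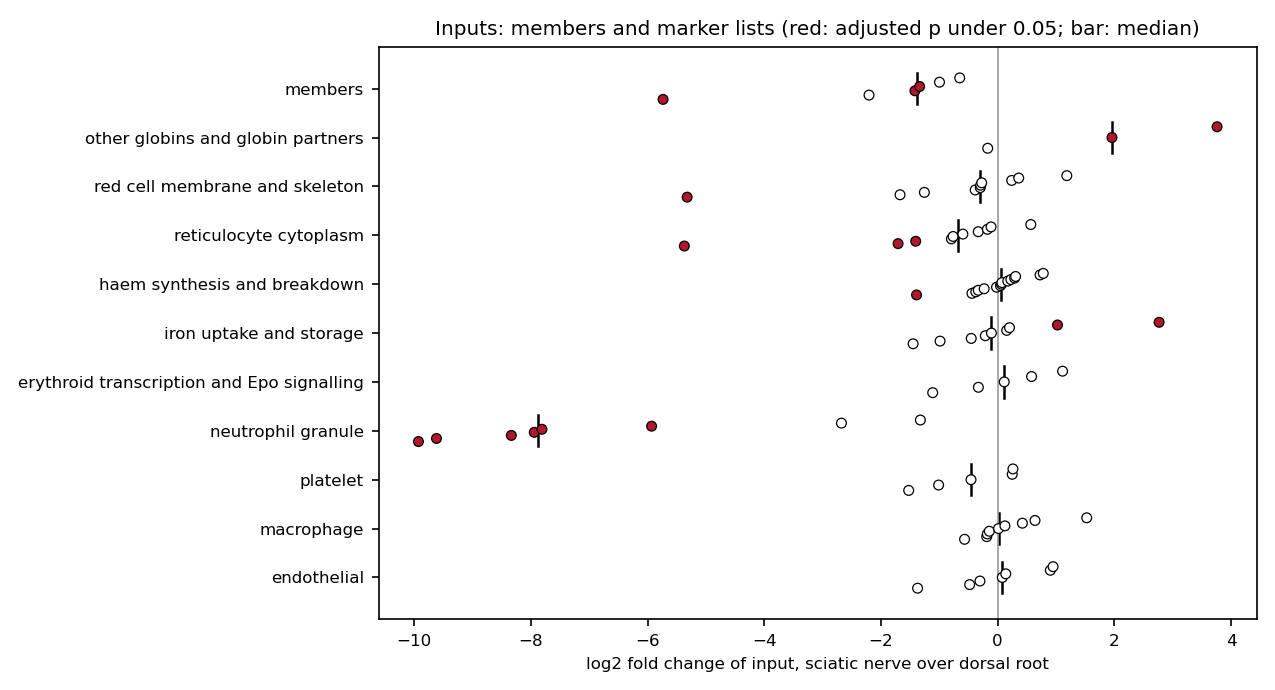
Log2 fold change of input, SN over DR, for each member and each gene of 10 marker lists, with red points for an adjusted p under 0.05 in edgeR's quasi-likelihood test and a bar at each median. The 6 members lie left of 0, Car2 stands near Slc4a1 at −5.37, and 6 of 8 neutrophil granule genes passed as lower in SN.

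In SN, the summed globin CPM was lower in both precipitates than in input, and lowest with IgG. CPM is a share of a library's counts, so amounts of RNA are not compared here. Against input, 4 of the 6 members fell past the threshold of edgeR's test with IgG, where 3.74% of the 12681 genes passed in either direction and 2.37% as lower. At an unadjusted p under 0.05, 10.4% of all genes and the same 4 members were lower. The libraries of 5 members lay below input without overlap, against 14.2% of all genes. The members' median log2 fold change was −2.29 beside 0.01 over all genes tested.

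Hbb-bs had 113, 76.1 and 84.3 CPM with IgG and 751, 705 and 729 CPM in input, 2 ranges far apart. It was 7.99-fold lower with IgG, a log2 fold change of −2.998 (SE 0.51, 95% interval −4.07 to −1.92, edgeR adjusted p = 0.0124). This call held in each fit with 1 library left out (adjusted p 0.0147 to 0.0340) and in the fit of the 2 groups alone. Hba-a1 had 122, 118 and 119 CPM with IgG, nearly equal, and 528, 542 and 856 CPM in input. It was 5.36-fold lower, at −2.42 (SE 0.51, adjusted p = 0.0230).

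Hbb-bt had 43.5, 48.0 and 60.6 CPM with IgG and 251, 262 and 166 CPM in input, a log2 fold change of −2.16 (SE 0.56, edgeR adjusted p = 0.0439). Slc4a1 had 4, 6 and 2 counts with IgG, or 0.195, 0.293 and 0.0908 CPM, and 7, 20 and 26 counts in input, a log2 fold change of −2.60 (SE 0.67, adjusted p = 0.0439) resting on these few counts. In both genes all IgG libraries lay below all inputs. These calls were less steady than that of Hbb-bs: Hba-a1 was lost without IgG 2 or without any 1 input (0.0519 to 0.0547), Hbb-bt without any library but IgG 3 (0.0574 to 0.114), and Slc4a1 without any of the 6 (0.0519 to 0.132). In the fit of the 2 groups alone, Hba-a1 had an adjusted p of 0.0859 and Hbb-bt of 0.0863, and Slc4a1 did not pass the filter on low counts.

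Hba-a2 had 39.2, 26.4 and 107 CPM with IgG and 155, 186 and 118 CPM in input, with a log2 fold change of −1.41 (SE 0.82, edgeR adjusted p = 0.370). Alas2 was uneven with IgG, at 69, 2 and 2 counts, or 3.36, 0.0977 and 0.0908 CPM, around the 0.555, 1.47 and 1.65 CPM of input. Its log2 fold change was −0.05 (SE 0.99), and −3.60 with an adjusted p of 0.0417 without IgG 1, the library with 69 counts. The fits with 1 library left out called 53 to 849 genes in all. The alpha pair was lower by −2.17 (SE 0.52, adjusted p = 0.0362) and the beta pair by −2.75 (SE 0.51, adjusted p = 0.0152). The beta pair passed in each fit with 1 library left out (0.0189 to 0.0464), and the alpha pair in 1 of these 6 (0.0340 to 0.0908).

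Markers of other cell types moved beside these genes in SN. Fat cell genes shifted most, with 6 of 6 positive for IgG against input, a median of 2.29 and summed levels of 30559 to 107040 CPM with IgG and 5231 to 18343.5 CPM in input. Fabp4, a fatty acid carrier, rose by 2.87 (edgeR adjusted p = 0.0160) and Adipoq, the hormone adiponectin, by 2.48 (0.0470), and with single libraries left out Fabp4 passed in 5 of 6 fits and Adipoq in 1. Of 8 neutrophil granule genes, Mmp9 at −4.88 and Retnlg at −4.17 fell (adjusted p = 0.00224 each) and Elane rose by 6.62 (0.0337), a call kept in 1 of 6 such fits, while the list's median was 1.30. Their sum was 10.6 to 49.8 CPM with IgG and 12.7 to 16.1 CPM in input. Of 9 macrophage genes, 9 had a negative log2 fold change for IgG against input, with a median of −0.83 and none past the threshold, and of 5 platelet genes 5 were negative, with a median of −0.70. Endothelial genes went the other way, with 7 of 7 positive and a median of 0.61. The 7 sensory neuron genes, 2 of them positive, had a median of −0.75, and 1 passed, Tubb3, the neuronal beta tubulin, at −4.21 (edgeR adjusted p = 0.0268). Tubb3 ran from −7.23 without IgG 1 to −3.64 without IgG 2 and was lost without SN input 1 or 2 (0.0706 and 0.0693). The summed macrophage level was 1979 to 2373 CPM with IgG and 2578 to 3297 CPM in input. Their part in the globin result was not tested.

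With the Kif5A antibody, the summed SN globins lay between the IgG and input levels. Against input, 0 members passed edgeR's test, where 1 of 12681 genes did, 0.00789%, and DESeq2 called 0 members as well. The 4 globins had an unadjusted p under 0.05 as lower, as 3.52% of all genes did, and all 4 lay below input without overlap, as 9.23% did. Hbb-bs had 284, 222 and 239 CPM with Kif5A, against 751, 705 and 729 CPM in input, a log2 fold change of −1.55 (SE 0.48, adjusted p = 0.579). Hba-a1 had 247, 203 and 258 CPM with Kif5A, against 528, 542 and 856 CPM in input, a log2 fold change of −1.44 (SE 0.49, adjusted p = 0.614).

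The less abundant copies followed. Hbb-bt had 65.5, 109 and 73.7 CPM with Kif5A and 251, 262 and 166 CPM in SN input, a log2 fold change of −1.45 (SE 0.54). Hba-a2 had 17.0, 66.5 and 50.2 CPM with Kif5A and 155, 186 and 118 CPM in input, at −1.78 (SE 0.83). As sums, the alpha pair had −1.50 (SE 0.51, edgeR adjusted p = 0.624) and the beta pair −1.53 (SE 0.49, adjusted p = 0.590). The other members did not share this direction: Alas2 had 3.25, 3.06 and 2.48 CPM with Kif5A, all above input as in 8.22% of genes, with a log2 fold change of 1.26 (SE 1.00), and Slc4a1 overlapped input at 1.25, 1.60 and 0.236 CPM. In the authors' deposited table, which tests each transcript, the main transcripts of the 4 globins had false discovery rates of 3.7e-04 for Hbb-bs, 0.00284 for Hba-a1, 0.0142 for Hbb-bt and 0.0375 for Hba-a2 in this comparison, with log2 fold changes of −1.52, −1.39, −1.43 and −1.91.

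Set against IgG, which is the comparison meant to mark RNA held by the antibody's target, the SN Kif5A precipitates had higher CPM of 3 globins in every library. No member passed edgeR's test, where 6 of 12551 genes did, 0.0478%, and 2 members had an unadjusted p under 0.05 as higher, as 6.18% of genes did. DESeq2, which called 405 genes in this comparison, called 1 member, Slc4a1, with an adjusted p of 0.0226. Hbb-bs was at 284, 222 and 239 CPM with Kif5A, above the 113, 76.1 and 84.3 CPM with IgG. Its log2 fold change was 1.49 (SE 0.55, 95% interval 0.30 to 2.69, edgeR adjusted p = 0.399), and 1.37 to 1.67 with single libraries left out. Hba-a1 was also above IgG in every library, at 1.03 (SE 0.53, adjusted p = 0.676), as was Hbb-bt, at 0.74 (SE 0.61), where 9.35% of all genes had such libraries without overlap.

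Hba-a2 overlapped between the antibodies in SN, with a log2 fold change of −0.35 (SE 0.95). As sums, the alpha pair had 0.70 (SE 0.57, edgeR adjusted p = 0.870) and the beta pair 1.27 (SE 0.55, adjusted p = 0.549). The Slc4a1 value, 2.43 (SE 0.68, edgeR adjusted p = 0.238), compares 20, 34 and 4 counts with Kif5A to 4, 6 and 2 counts with IgG. Alas2 had 1.36 (SE 1.12), with IgG 1 above all 3 Kif5A libraries, and 4.90 without IgG 1 (adjusted p = 0.0860). The authors' deposited table put Hbb-bs at 1.52 on the log2 scale (false discovery rate 1.8e-04) and Hba-a1 at 1.01 (0.0138) for Kif5A against IgG in SN, while Hbb-bt, at 0.72, had 0.283.

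**Figure D3:**
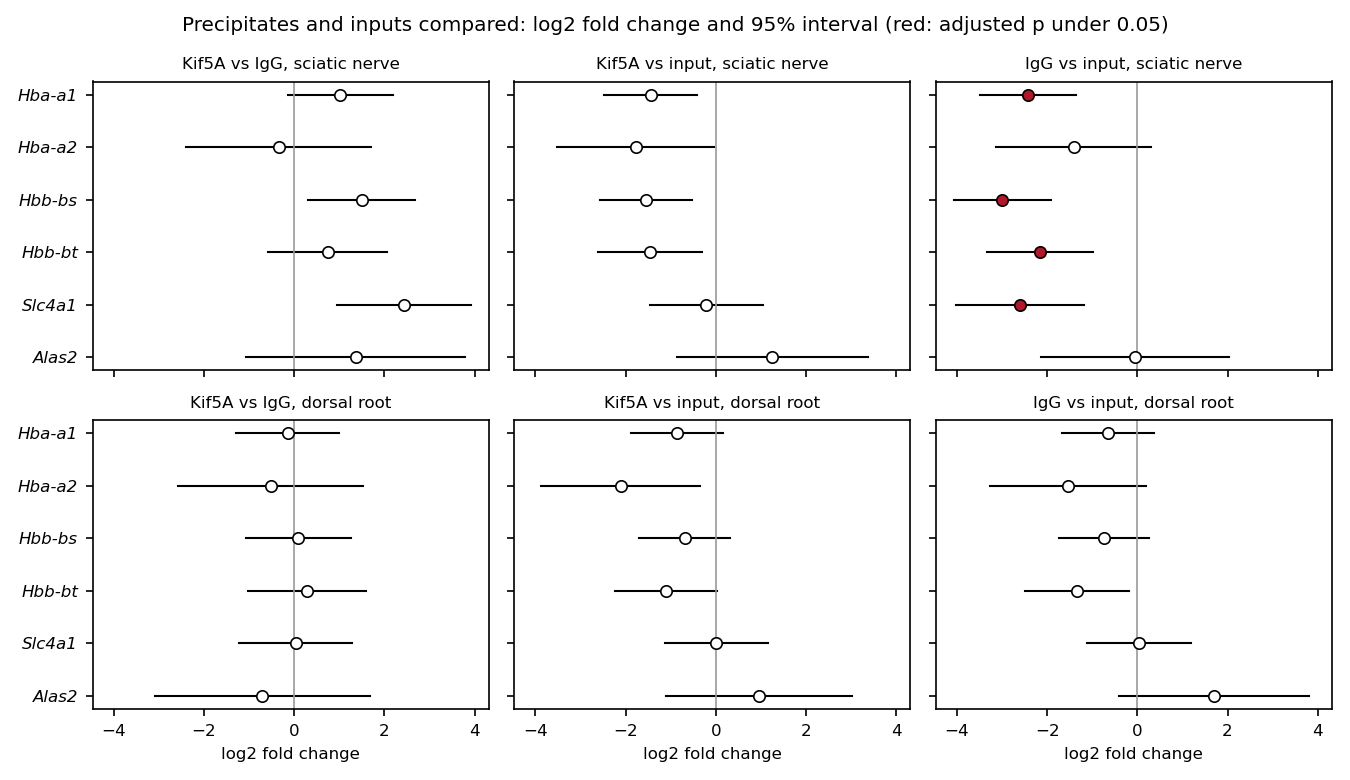
Log2 fold changes of the 6 genes with 95% intervals from edgeR, for 3 comparisons in SN (upper row) and in DR (lower row), with red points for an adjusted p under 0.05. The 4 red points are all in IgG against input of SN, and in DR the values of Kif5A against IgG lie between −0.71 and 0.29.

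In DR, the globin level varied more between libraries of 1 precipitate than between the antibodies. Summed globins were 753, 1534 and 3133 CPM in the Kif5A precipitates and 635, 1615 and 3429 CPM in the IgG precipitates, so replicate 1 was lowest and replicate 3 highest with either antibody. The inputs, at 2986, 4565 and 2809 CPM, did not share that order. The main fit had no replicate block, so spread shared by same-numbered precipitates stayed in its SEs. With a replicate block, no member passed for Kif5A against IgG in DR either. Against IgG, 0 members passed edgeR's test, where 0% of 12551 genes passed, 0 were under an unadjusted p of 0.05, and DESeq2 called 0. The log2 fold changes ran from −0.71 for Alas2 to 0.29 for Hbb-bt.

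By gene, Hba-a1 had 294, 607 and 1254 CPM with Kif5A and 291, 818 and 1363 CPM with IgG in DR, a log2 fold change of −0.15 (SE 0.53). Hbb-bs had 323, 628 and 1192 CPM with Kif5A and 232, 596 and 1255 CPM with IgG, at 0.09 (SE 0.54, 95% interval −1.08 to 1.26). Slc4a1 had 49.0, 84.5 and 62.8 CPM with Kif5A and 47.2, 74.2 and 77.3 CPM with IgG, at 0.03 (SE 0.58). The libraries overlapped in all 3, and the sign of each turned when single libraries were left out. Alas2, at 7.72, 16.5 and 9.005 CPM with Kif5A, was below the 18.9, 17.7 and 19.4 CPM with IgG in every library, at −0.71 (SE 1.10), a pattern that 5.43% of all genes had. As sums, the alpha pair had −0.20 (SE 0.56) and the beta pair 0.14 (SE 0.54).

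Against input in DR, neither precipitate changed a member past the threshold. For Kif5A, 0 members and 0% of 12681 genes passed edgeR's test, DESeq2 called 0 members, and 1 member fell under an unadjusted p of 0.05, as 5.11% of genes did as lower. That member was Hba-a2, with 23.4, 63.9 and 183 CPM with Kif5A, all below the 416, 478 and 275 CPM of input, at −2.11 (SE 0.84, adjusted p = 0.464). Hbb-bt, with 113, 235 and 504 CPM, also lay below the 529.9, 794 and 505 CPM of input, by a narrow margin in 1 library, at −1.10 (SE 0.54, adjusted p = 0.614). Such a separation was seen in 15.6% of all genes. The authors' deposited table gave these genes log2 fold changes of −2.97 and −1.53 with false discovery rates of 3.6e-04 for Hba-a2 and 0.0147 for Hbb-bt. As sums, the alpha pair had −1.06 (SE 0.51, edgeR adjusted p = 0.598) and the beta pair −0.82 (SE 0.48, adjusted p = 0.702), and both overlapped input.

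For IgG against input in DR, 0 members passed edgeR's test, where 1.23% of 12681 genes did, and DESeq2 called 0 as well. At an unadjusted p under 0.05, 1 was lower, as were 10.3% of genes. Hbb-bt had 85.5, 151 and 486 CPM with IgG, all below the inputs as in 18.1% of all genes, at −1.34 (SE 0.54, adjusted p = 0.182). Without IgG 3, the library with the most globin, Hbb-bt passed at −2.37 (adjusted p = 0.0134) and Hba-a2 at −3.33 (adjusted p = 0.0208). Such fits with 1 library left out called 5 to 1339 genes and 0 to 2 members, against 156 genes with all libraries. Alas2 went the other way, with all 3 IgG libraries, as in 12.3% of genes, above the 3.02, 8.22 and 5.97 CPM of input, at 1.70 (SE 1.00, adjusted p = 0.362). Slc4a1 overlapped its inputs in both DR precipitates, at 0.02 (SE 0.54) for Kif5A and 0.03 (SE 0.54) for IgG. For IgG against input, the alpha pair had −0.82 (SE 0.51, edgeR adjusted p = 0.389) and the beta pair −0.92 (SE 0.48, adjusted p = 0.304).

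Whether the tissues differed in these ratios was tested on the difference itself, and 0 members passed edgeR's test in any of the 3 forms. For Kif5A over IgG, SN minus DR, the members' median was 1.29, and the nearest to a call was Slc4a1 at 2.40 (SE 0.89, adjusted p = 0.630), the 1 member with an unadjusted p under 0.05 as higher, as 3.67% of genes had. Of all genes 0.0159% passed, and DESeq2 called 0 members. Hbb-bs had 1.40 (95% interval −0.26 to 3.07). For IgG over input, a comparison added after the data were seen, Hbb-bs had −2.26 (SE 0.68, adjusted p = 0.155), Slc4a1 −2.64 (SE 0.86, adjusted p = 0.193) and Hba-a1 −1.77 (SE 0.69, adjusted p = 0.286). These 3 had an unadjusted p under 0.05 as lower, as 6.31% of genes had, and 0.442% of all genes passed edgeR's test. DESeq2, which called 550 genes in this difference, called 2 members, Hbb-bs with an adjusted p of 0.0326 and Slc4a1 with 0.0398. Without SN IgG 1, Alas2 passed edgeR's test in this difference, at −5.30 (adjusted p = 0.0239), and without DR IgG 1, Hbb-bs passed at −2.68 (adjusted p = 0.0387). The fits of this difference with 1 library left out called 11 to 220 genes in all. For Kif5A over input, also added, the members lay between −0.86 and 0.33, 0 were under an unadjusted p of 0.05, 0% of genes passed, and DESeq2 called 0.

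Ratios within a library do not depend on the scaling between libraries. The alpha pair made up 43.0% to 49.6% of the 4 globins in the SN Kif5A libraries, 50.7% to 60.9% with SN IgG, 40.6% to 52.1% in SN input, 42.1% to 45.9% with DR Kif5A, 49.2% to 53.8% with DR IgG and 44.9% to 51.4% in DR input. In each tissue the share was lower with Kif5A than with IgG without overlap. With 3 libraries against 3, an exact permutation test cannot go below p = 0.1, and the shares are given without a test. Counting error on each share, as a 95% Wilson interval, was at most 1.32 percentage points either way; without molecular identifiers, intervals cover counting error only.

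The split within the alpha pair differed more. Hba-a2 held 7.37%, 9.52% and 12.8% of alpha counts with DR Kif5A and 8.34%, 5.85% and 19.2% with DR IgG, all below the 27.1%, 21.1% and 21.8% of DR input. In SN the shares overlapped, at 6.43% to 24.7% with Kif5A, 18.2% to 47.4% with IgG and 12.1% to 25.6% in input. Hbb-bt likewise held 25.9% to 29.7% of beta counts with DR Kif5A and 20.2% to 27.9% with DR IgG, below the 32.6% to 36.5% of DR input, while in SN it held 18.7% to 32.8% with Kif5A, 27.8% to 41.8% with IgG and 18.5% to 27.1% in input, so that the SN IgG libraries lay above input. These shares rest on how reads of the shared stretches printed above were divided.

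Relative to globins, Slc4a1 parted the tissues without any scaling. Its counts were 0.0380% to 0.266% of Slc4a1 plus globins with SN Kif5A, 0.0245% to 0.109% with SN IgG and 0.0256% to 0.102% in SN input. In DR they were 1.97% to 6.11% with Kif5A, 2.20% to 6.92% with IgG and 1.61% to 2.04% in input. The lowest DR library was above the highest SN library in each kind of sample. The retained-intron transcript of Hba-a1 kept a share of 1.49% to 2.60% of its counts over the 18 libraries and that of Hbb-bs 1.84% to 4.23%, and the ranges of precipitates and inputs overlapped in both tissues, with most counts of both genes in the spliced form.

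**Figure D4:**
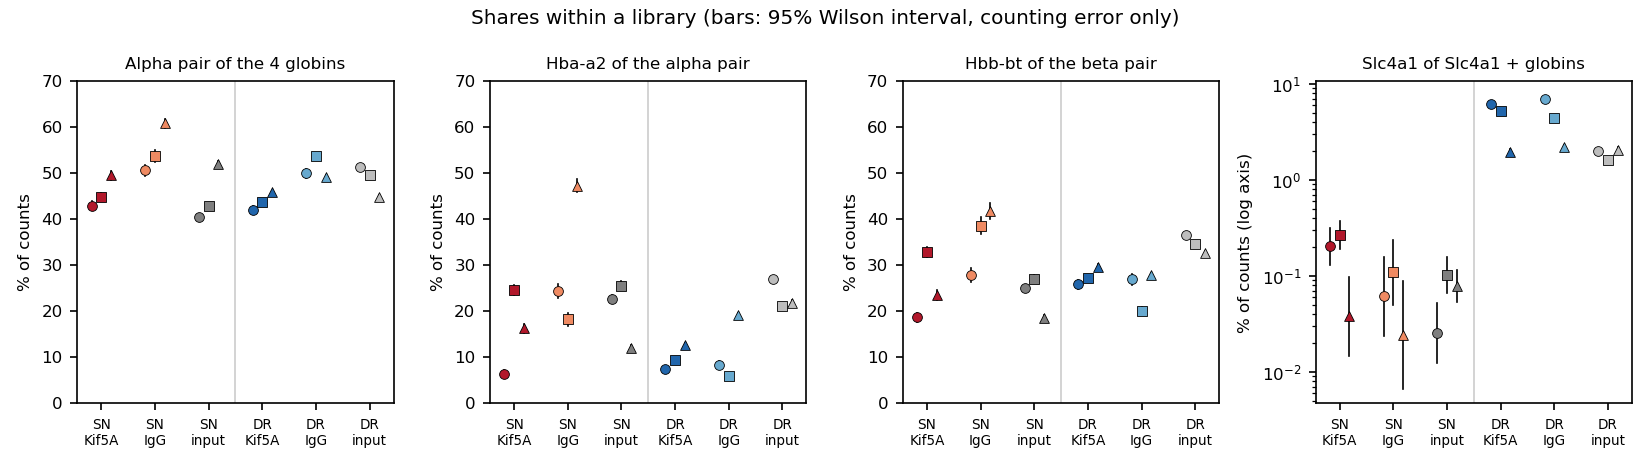
Share of counts within each library (percent, with 95% Wilson intervals, symbols by replicate number) for the alpha pair among the 4 globins, Hba-a2 in the alpha pair, Hbb-bt in the beta pair, and Slc4a1 among Slc4a1 plus globins (log axis). In DR the precipitates lie below input in the shares of Hba-a2 and Hbb-bt, and the Slc4a1 share is 1.61% or more in every DR library and 0.266% or less in every SN library.

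Other genes of red cells and their precursors were read from 6 lists chosen with earlier results of these data known. Of their 69 genes listed in either table, 0 stood in the SN table alone and 16, or 23.2%, in the DR table alone. Of all 15552 named genes, 4.97% stood in the SN table alone and 12.8% in the DR table alone. Those of the DR table alone included Ank1 of the red cell skeleton, Rhag, Rhd and Kel of blood group complexes, and Gata1 and Klf1, the transcription factors of the erythroid programme. Rhag had 429, 403 and 318 counts in the DR inputs, and Klf1 had 125, 191 and 131 counts. The embryonic globins Hba-x, Hbb-y and Hbb-bh1, and Ahsp, the alpha chain chaperone, stood in neither table.

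Of red cell membrane and skeleton genes, 10 were tested between inputs, with a median log2 fold change of −0.29. Of 10 genes of the reticulocyte cytoplasm, 3 passed as lower in SN, and the list's median was −0.68. They were Car2, carbonic anhydrase 2, at −5.37 (SE 0.36, edgeR adjusted p = 7.3e-05), Mkrn1, a ubiquitin ligase, at −1.71 (SE 0.33) and Bpgm, which makes the oxygen-affinity regulator 2,3-bisphosphoglycerate, at −1.40 (SE 0.25, adjusted p = 0.0160). Car2 passed in all 6 fits with 1 input left out, Mkrn1 in 3 and Bpgm in 2. Car2 is also made by cells other than red cells.

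Genes of haem and iron handling are used by most cells, and their counts stand beside the 4.12% of all genes that passed between inputs. Of 15 genes of haem synthesis and breakdown 1 passed as lower in SN inputs, Cpox at −1.39 (SE 0.24, edgeR adjusted p = 0.0133), and the list's median was 0.07. Of 9 iron genes 2 passed as higher, Steap3 at 2.77 and Aco1 at 1.03, and the list's median was −0.11. With single inputs left out, Steap3 passed in 3 of 6 fits, Cpox in 2 and Aco1 in 1, with adjusted p values up to 0.121 for Steap3, 0.0989 for Cpox and 0.199 for Aco1. Of the globin relatives and partners, Cygb, the cytoglobin of connective tissue cells, rose by 1.96 (SE 0.26) and Hp, the plasma protein haptoglobin that binds free haemoglobin and is also made by fat cells, rose by 3.76 (SE 0.30, adjusted p = 2.0e-04) in SN over DR inputs. The 5 tested genes of erythroid transcription and Epo signalling had a median of 0.11.

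Between IgG and SN input, the members of these lists that passed were higher with IgG. For IgG against SN input, Aqp1, a water channel of red cells and endothelium, rose by 4.07 (SE 0.81, edgeR adjusted p = 0.0190), and Alas1, the housekeeping partner of Alas2, rose by 2.65 (SE 0.71, adjusted p = 0.0473). Alas1 had 10.4, 13.7 and 15.2 CPM with IgG and 1.85, 2.93 and 1.48 CPM in input. Ppox rose by 2.77 and Hp by 2.71. With single libraries left out, Alas1 passed in 0 of 6 fits, Ppox in 1, Hp in 2 and Aqp1 in 3. The medians of the 6 lists lay between −0.85 and 1.74, beside −2.29 for the members.

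Neutrophil granule genes shared the direction of Slc4a1 between inputs. Of 8 tested, 6 passed as lower in SN inputs, with a median of −7.88, among them S100a9 at −7.94 (SE 0.38, edgeR adjusted p = 1.3e-05) and Camp at −9.93. Their sum was 12.7 to 16.1 CPM in SN inputs and 1768 to 2889 CPM in DR inputs. Between inputs, the median was 0.02 for 9 macrophage genes, −0.46 for 5 platelet genes and 0.08 for 7 endothelial genes. The part of these cells in the tissue difference of the members was not tested.

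Across the 18 libraries, log2(CPM + 1) of single members was set against that of the summed globins, as a description. Pearson's r was 0.989 for Hba-a1, 0.985 for Hbb-bs, 0.971 for Hbb-bt and 0.812 for Hba-a2, all of which are part of that sum, and 0.675 for Slc4a1 and 0.447 for Alas2, which are not. Within the 9 libraries of a tissue, Slc4a1 had 0.612 in SN and 0.597 in DR, and Alas2 0.0941 in SN and −0.353 in DR. Libraries share their depth and, within a repeat, may share animals, so the values are no test.

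Outside the members, the genes with the most similar pattern included Itm2c (r = 0.920), Cystm1 (0.913), Apod (0.896), Fcer1g (0.892), Ramp1 (0.890), Lyz2 (0.888) and Dbil5 (0.885). Their r within the 9 libraries of each tissue was 0.778 to 0.953. Apod encodes an apolipoprotein and Lyz2 the lysozyme of macrophages and neutrophils, and Fcer1g an adaptor of immune receptors. Itm2c, at 264, 307 and 289 CPM with SN Kif5A, 206, 137 and 230.5 CPM with SN IgG and 392, 367 and 428 CPM in SN input, showed the same order of groups as the globins in SN. It was chosen among 8407 ranked genes for its r over these same libraries, so that order was favoured by the choice.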

How the data were processed

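The authors' deposited tables, 1 for each tissue, held raw counts per transcript for 9 libraries each, with fold changes as log2 values, p-values and false discovery rates of the authors' own comparisons, and a normalised signal column that was not used, per the file headers. CASAVA 1.8.2, edgeR and the builds mm10 and GRCm38 stand in the submitters' processing notes. For the aligner, counter, annotation and strand setting, nothing was given in the sources used here. The RNA was amplified with SMART-Seq v4, so counts are reads and not molecules.

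The 6 members, the gene lists and the rule for named genes were chosen with earlier results of these data known. All members were named, and of each list up to 3 genes with the smallest p among those past an adjusted p of 0.05. For the pattern across libraries, the 8 genes of highest r with the summed globins were named, among those with a mean of at least 5 CPM. Some genes that these rules name are not reported here. Counts were summed per gene over the 16878 named transcripts that both tables hold, giving 12697 genes. Rows without a gene name, 0.138% to 0.237% of counts, were left out.

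Tests were edgeR's (4.0.16, R 4.3.3) robust quasi-likelihood F-test with TMM scaling and Benjamini-Hochberg adjustment over all genes past the tool's filter on low counts. The 12 precipitates entered the fit of Kif5A against IgG, all 18 libraries that against input, and the 6 inputs that of SN against DR. DESeq2 1.42.0, other scalings, no filter, all transcripts, a replicate block, fits of 2 groups alone and fits without single libraries were the alternatives. The scripts were tested on simulated data, with 50 genes changed at each size. For Kif5A against IgG in DR, edgeR's test found 2 genes changed 2-fold, 7 changed 4-fold and 17 changed 8-fold. For Kif5A against input in DR it found 1, 16 and 26, and between inputs 3, 32 and 43. A member that did not pass is thus not shown to be unchanged. Correlations of same-numbered deviations from group means were 0.150 to 0.403 between SN and DR inputs, and 0.101 to 0.346 between SN Kif5A and SN input. Replicate numbers paired the samples in the replicate block alone, and the main fits had no block. The labels state that SN and DR came from the same animals, without saying that equal numbers share them.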

Additional observations from a re-analysis of the deposited data

Results flagged for a closer look

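Alas2, the erythroid enzyme of haem synthesis, stood out because each SN Kif5A library lay above the mean of the SN IgG libraries (1.18 CPM) while each DR Kif5A library lay below that of the DR IgG libraries (18.7 CPM). The difference, SN minus DR, was 2.07 (SE 1.57, 95% interval −1.33 to 5.47) and did not pass edgeR's quasi-likelihood test (adjusted p = 1.00). It ran from 1.52 without SN IgG 3 to 5.60 without SN IgG 1 (adjusted p = 0.125), and the SN value from 0.82 to 4.90 without these libraries. In SN the libraries overlapped, since IgG 1 had 3.36 CPM from 69 counts and each other IgG library had 2 counts, beside 3.25, 3.06 and 2.48 CPM with Kif5A.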

How the results depend on the processing

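The fall of Slc4a1 between inputs and of Hbb-bs between SN IgG and input passed under every alternative run. Counts of all genes past the threshold depended on the tool. DESeq2 called 405 and 150 genes for Kif5A against IgG in SN and DR (187 for the difference), 52 and 179 for Kif5A against input in SN and DR, 1412 and 1413 for IgG against input in SN and DR (550 for the difference), and 1061 between inputs. Among members, DESeq2 called 1 for Kif5A against IgG in SN, 4 for IgG against input in SN, 2 in the difference of IgG against input and 4 between inputs, where it added Alas2. In fits of 2 groups alone the counts were 0 for Kif5A against IgG in SN, 0 and 390 for Kif5A against input in SN and DR, 5 for IgG against input in SN, with 1 member, and 0 in DR. The replicate block gave 1 gene for Kif5A against IgG in SN, 0 for its difference and 621 for IgG against input in DR. It turned Slc4a1 in DR to −0.0148 against IgG and −0.0181 against input for Kif5A. Library size alone gave 302 genes for IgG against input in DR and 4 for the Kif5A against IgG difference (also 4 with RLE factors, 0 with all transcripts), and values of 0.00286 for Slc4a1, Kif5A against input, and 8.2e-04 for Alas2, IgG against input, in SN.

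Leaving out single libraries gave 0 to 29 genes for Kif5A against IgG in SN, 0 to 2 in DR and 0 to 24 for the difference, 0 to 6 and 0 to 1 for Kif5A against input in SN and DR, 53 to 849 for IgG against input in SN (1 to 3 members), 5 to 1339 in DR (0 to 2 members), 11 to 220 for the difference (0 to 1 members) and 220 to 2538 between inputs (1 to 6 members). Signs turned in these fits for Kif5A against IgG in DR, at −0.83 to 0.42 for Hba-a1, −1.58 to 1.27 for Hba-a2, −0.50 to 0.84 for Hbb-bs, −0.43 to 1.32 for Hbb-bt, −0.18 to 0.19 for Slc4a1, −0.91 to 0.50 for the alpha pair and −0.48 to 0.96 for the beta pair. In SN, Hba-a2 ran from −0.74 to 0.50, and in the difference Hba-a2 from −1.62 to 1.23 and Hbb-bt from −0.58 to 1.17. Slc4a1 ran from −0.70 to 0.25 in SN and from −0.21 to 0.19 in DR for Kif5A against input, and from −0.0925 to 0.23 for IgG against input in DR. Alas2 ran from −3.60 to 0.50 for IgG against input in SN. In the difference of Kif5A against input the ranges were −0.96 to 0.0835 for Hba-a1, −0.12 to 1.39 for Hba-a2, −0.73 to 0.36 for Hbb-bt, −0.71 to 0.23 for Slc4a1, −0.0450 to 0.71 for Alas2 and −0.82 to 0.27 for the alpha pair. For IgG against input they were −0.68 to 1.92 for Hba-a2 and −1.22 to 0.21 for Hbb-bt. The cause was not tested. Other same-numbered pairs of groups had correlations of −0.06 to 0.29. The few counts of Slc4a1 and Alas2 in SN limit both genes.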
